A study of Homo sapiens with 6 samples.

Results

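The genes described here are 60 genes that encode the kinetochore, the spindle checkpoint, the mitotic spindle, the chromosomal passenger complex and the cytokinesis machinery. They also encode regulators of the anaphase-promoting complex, separase, protectors of cohesin, condensin and the kinases and phosphatases of mitotic entry. They were chosen by symbol, and all 60 were found by their Ensembl identifier among the 60605 genes of the count table. After the filter on low counts 57 of them were tested, among 14479 tested genes in all. RNA sequencing of total RNA had been carried out on UMUC3, an established human bladder cancer cell line, in 3 libraries infected with a TIM-1 construct in pLVX-IRES-ZsGreen and 3 libraries infected with pLVX-IRES-ZsGreen without TIM-1, called the empty vector below. TIM-1 is a surface receptor for phosphatidylserine encoded by HAVCR1, both groups carried the lentiviral vector and its green fluorescent protein, and no uninfected cells were analysed here. Libraries are numbered 1 to 3 in each group. Nothing in the labels says that libraries of a group stem from separate cultures, and the p-values therefore cover only the spread among these libraries, which may be technical.

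Kinetochores are protein assemblies built on centromeres that hold chromosomes to spindle microtubules. Unattached kinetochores keep the spindle checkpoint active, which restrains the anaphase-promoting complex until every chromosome is attached. The anaphase-promoting complex then marks securin and cyclin B for destruction, separase opens the cohesin rings, and condensin keeps the sister chromatids compact while they part. Most of these genes are transcribed in the late S, G2 and M phases of the cell cycle, with little transcription in G1, so their summed level in a dividing culture is often used as a measure of proliferation.

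HAVCR1 was represented by 7069, 9824 and 11479 reads in TIM-1 libraries 1 to 3, against 4, 0 and 0 in empty-vector libraries 1 to 3, as the labels require. Total counts lay between 14312387 and 18605914 per library. The mesenchymal marker VIM stood at 1413 to 2121 CPM (counts scaled to a common library size) and the keratin genes KRT18 and KRT8 at 272 to 511 and 42.9 to 50.0 CPM. The mesenchymal genes CDH2 and FN1 had 26.5 to 31.8 and 10.7 to 15.8 CPM, and the epithelial genes KRT19, KRT7 and CDH1 lay below 1 CPM. EPCAM and the uroplakin gene UPK3A were at 0 in every library. UPK1A and UPK2 lay below 1 CPM, and the urothelial transcription factor genes PPARG and GATA3 stood at 4.38 to 8.42 and 0.648 to 2.35 CPM, so the cells carried few defining markers of urothelium. The defining leukocyte and endothelial markers PTPRC, CD3E and CDH5 were also at 0, and CD14, PECAM1 and VWF had at most 3 counts in a library. The replicate 1 libraries of both groups differed from the other 4, so the counts of TIM-1 calls below are given with and without pairing by number. The roles are described by the paired fit, with the unpaired values of some single genes beside it.

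Together the 60 genes took 1.41%, 1.08% and 1.01% of all counts in TIM-1 libraries 1 to 3, and 1.43%, 1.04% and 0.998% in empty-vector libraries 1 to 3. The share was highest in the replicate 1 library of each group, and the 2 groups lay side by side within each number. Per kilobase of exon, the most abundant of the genes was UBE2C, the ubiquitin-conjugating enzyme of the anaphase-promoting complex, at a mean of 344 CPM per kb. It was followed by CDC20, the activator of that complex, at 272 CPM per kb and by the spindle assembly factor TPX2 at 173 CPM per kb. Securin (PTTG1) stood at 155 CPM per kb, the condensin subunit NCAPD2 at 139 CPM per kb and topoisomerase II alpha (TOP2A) at 106 CPM per kb. Within the other roles the highest were ANLN, an actin-binding scaffold of the cytokinetic ring, at 99.1 CPM per kb, the phosphatase CDC25B at 99.9 CPM per kb and survivin (BIRC5) at 75.1 CPM per kb. ZWINT, which recruits a motor adaptor to the outer kinetochore, had 53.5 CPM per kb, the checkpoint kinase BUB1 38.7 CPM per kb and the centromeric histone CENPA 23.3 CPM per kb. The lowest of the tested genes were the centromere protein CENPC at 1.99 CPM per kb and SGO1, the shugoshin that protects centromeric cohesin, at 4.21 CPM per kb. The scaffold KNL1 followed at 6.83 CPM per kb. In their own roles the lowest were CDC25C, SMC2 and INCENP, at 18.1, 23.2 and 23.6 CPM per kb.

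For 3 genes almost no reads had been counted. MAD1L1, which anchors the checkpoint protein MAD2 at kinetochores, had 10, 4 and 2 counts in TIM-1 libraries 1 to 3 and 10, 1 and 5 in empty-vector libraries 1 to 3. NUSAP1, a microtubule-bundling protein, had 12, 2 and 1 counts in the TIM-1 libraries and 2, 9 and 5 in the empty-vector libraries. PRC1, which cross-links the central spindle, had 4, 5 and 2 counts in the TIM-1 libraries and 5, 1 and 5 in the empty-vector libraries. In GENCODE 29, 62.2% of the exon bases of NUSAP1 and 57.6% of those of PRC1 also belong to another protein-coding gene on the same strand, AC087721.2 and AC068831.7. AC087721.2 had 0 counts in all 6 libraries and AC068831.7 between 75 and 147, and no such gene was found for MAD1L1. How reads shared by overlapping genes were counted is not stated, so the counts of NUSAP1 and PRC1 may not give their levels. The authors' annotation is not stated either, so the same may be true of MAD1L1. None of the 3 genes passed the low-count filter, and they were left out of every comparison.

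**Figure D1:**
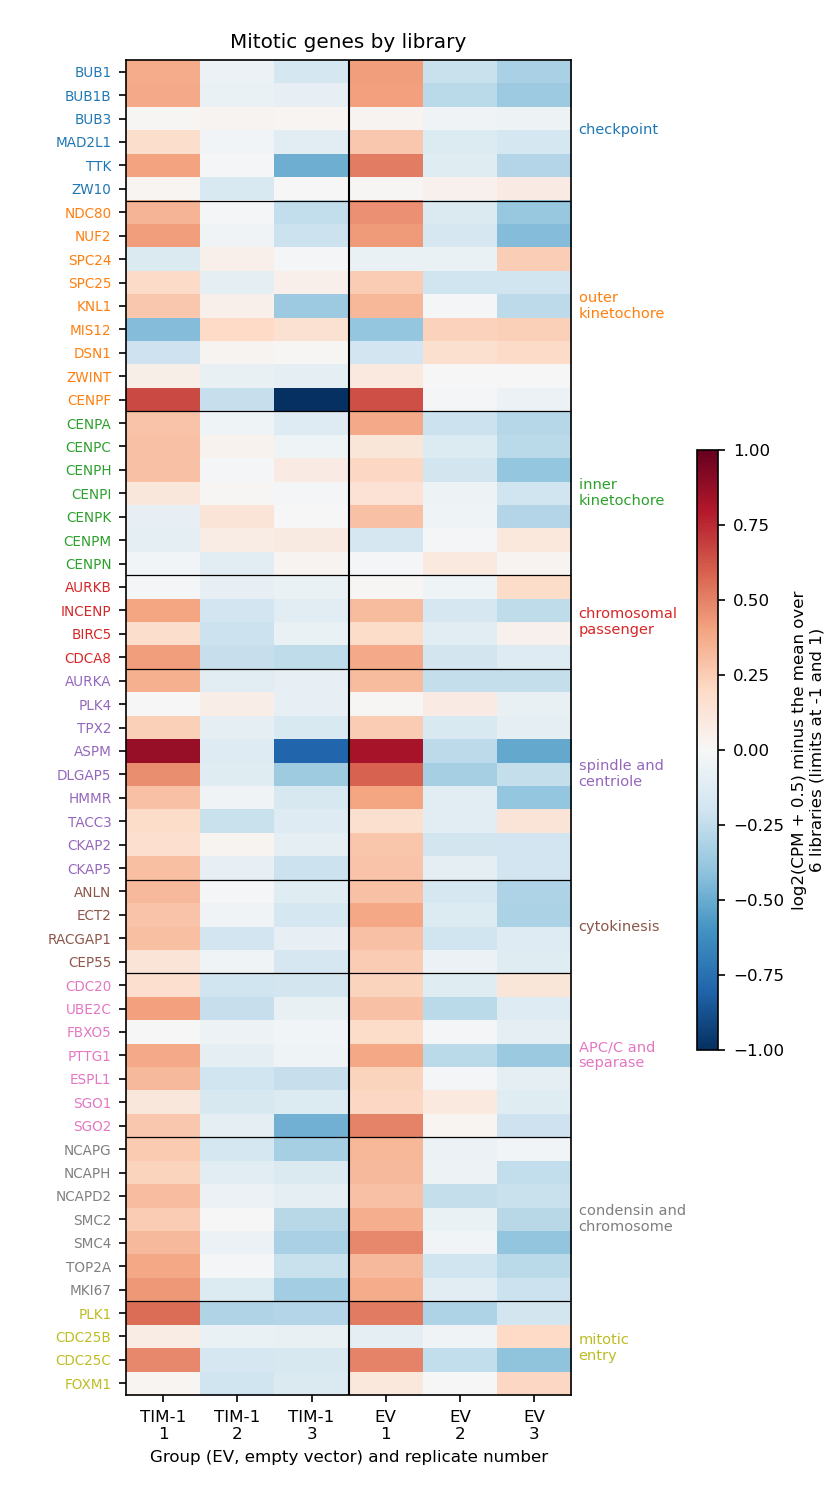
Level of the 57 tested genes in each library, as log2(CPM + 0.5) minus the mean of the gene over the 6 libraries; columns are TIM-1 replicates 1 to 3 and then empty-vector (EV) replicates 1 to 3, and genes are ordered and coloured by role. The replicate 1 columns of both groups are mostly above the mean, with MIS12 and DSN1 among the few below it, and the TIM-1 columns resemble the empty-vector columns of the same number.

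With TIM-1 these genes stayed close to their level in empty-vector cells. In the unpaired edgeR test 0 of the 57 genes were higher and 0 were lower with TIM-1 at a Benjamini-Hochberg adjusted threshold of 0.05, where 0.0138% of all tested genes were higher and 0.0% lower. An unadjusted p under 0.05 was reached by 1 of the 57 genes, FOXM1, against 5.49% of all genes, and DESeq2 also called 0 higher and 0 lower. The median log2 fold change of the 57 genes was -0.01, beside -0.00 over all tested genes, and the fold changes ran from -0.26 to 0.23. For no gene did the 3 TIM-1 values lie wholly above or wholly below the 3 empty-vector values, whereas 6.6% of all genes lay wholly above and 5.06% wholly below. Such a gap could not arise in the 45 genes whose replicate 1 libraries both lay above all 4 others. Nor could it in the 3 genes where both lay below. The count of 0 was therefore largely set by replicate 1 and says little about TIM-1. In bulk RNA, fewer cells in mitosis and less of a transcript per mitotic cell cannot be told apart, and neither can their opposites.

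Pairing the libraries by number narrowed the spread and changed 1 call. The biological coefficient of variation over all tested genes was 6.67% with the pairing and 14.2% without it. In the paired edgeR test 0 of the 57 genes were higher and 1 was lower with TIM-1, against 3.22% higher and 1.79% lower among all tested genes. An unadjusted p under 0.05 was reached by 8 of the 57 genes and by 18.3% of all genes. The median paired log2 fold change was again -0.01. In the pairs 1, 2 and 3, 20, 34 and 29 of the 57 genes were higher with TIM-1, with median log2 differences of -0.02, 0.06 and 0.00. Over the 3 pairs 8 genes were higher each time and 11 lower each time, together a smaller share than the 39.2% of all tested genes.

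The gene that fell was FOXM1, the forkhead transcription factor that drives much of the G2 and M phase programme (ENSG00000111206, chromosome 12, 2857681 to 2877155 on the minus strand, GRCh38). Its level was 183, 156 and 162 CPM in TIM-1 libraries 1 to 3 and 194, 180 and 208 CPM in empty-vector libraries 1 to 3. TIM-1 was the lower library of every pair, while TIM-1 replicate 1 lay above empty-vector replicate 2, so the groups overlapped. The mean was 167 ± 13.8 CPM in TIM-1 cells, against 194 ± 13.8 CPM in empty-vector cells (SD, n = 3 each). In the paired fit its log2 fold change of -0.22 (SE 0.064) had an edgeR adjusted p of 0.0346. In the unpaired fit the same -0.22 (SE 0.093) had an edgeR adjusted p of 0.887. The call was lost with DESeq2 (adjusted p = 0.189), without pair 2 (edgeR adjusted p = 0.325), without pair 3 (edgeR adjusted p = 0.316) and with a block for replicate 1 only (edgeR adjusted p = 0.0800). In GENCODE 29, 15.9% of the exon bases of FOXM1 overlap ITFG2 on the opposite strand, and whether the counting used strand is not stated.

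**Figure D2:**
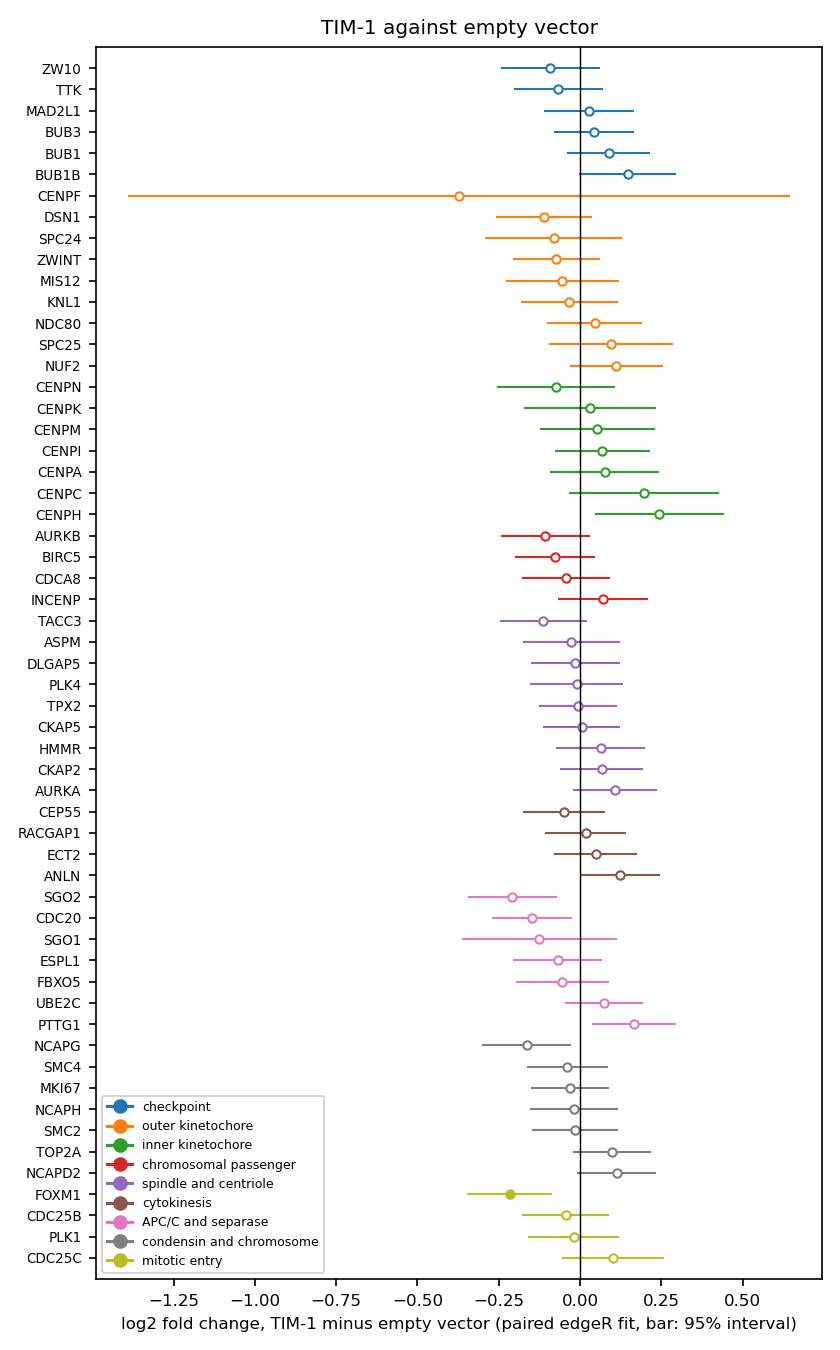
Paired edgeR log2 fold change, TIM-1 minus empty vector, of the 57 tested genes by role, with 95% intervals that are not adjusted for the number of genes; a filled point has an adjusted p under 0.05. FOXM1 (-0.22) is the filled point, and CENPF has the widest interval, from -1.39 to 0.64.

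The checkpoint genes (BUB1, BUB1B, BUB3, MAD2L1, TTK and ZW10) had paired log2 fold changes between -0.09 and 0.15, and 0 of 6 passed the test. BUB1, the kinase that phosphorylates centromeric histone H2A, stood at 296, 219 and 202 CPM in TIM-1 libraries 1 to 3, against 305, 196 and 183 CPM in empty-vector libraries 1 to 3. In both groups library 1 was the highest and library 3 the lowest. BUB3, which brings BUB1 to KNL1, varied little, with 269, 271 and 270 CPM in the TIM-1 libraries and 270, 259 and 257 CPM in the empty-vector libraries.

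Among the 9 outer kinetochore genes 0 passed, and the widest spread was that of CENPF, a large protein of the kinetochore corona (ENSG00000117724, chromosome 1, 214603195 to 214664588 on the plus strand). CENPF stood at 413, 222 and 130 CPM in TIM-1 libraries 1 to 3 and at 409, 257 and 250 CPM in empty-vector libraries 1 to 3. The pair 3 value was low in the TIM-1 library alone, with 2409 counts there and 4144 in empty-vector replicate 3, while the replicate 1 libraries were alike. Its paired log2 fold change of -0.37 (SE 0.27, edgeR adjusted p = 0.618) had the lowest value of the group, and of the 10 settings tried it passed without pair 2 alone (-0.46, edgeR adjusted p = 0.0318). The other 8, which include the Ndc80 complex (NDC80, NUF2, SPC24, SPC25), KNL1, the Mis12 complex subunits MIS12 and DSN1, and ZWINT, lay between -0.11 and 0.11.

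The inner kinetochore genes had paired log2 fold changes from -0.07 to 0.24, and 0 of 7 passed. The 2 most positive fold changes of all 57 genes belonged to this role. CENPH, a subunit of the constitutive centromere-associated network, stood at 35.9, 29.1 and 31.1 CPM in the TIM-1 libraries and at 33.8, 25.8 and 22.3 CPM in the empty-vector libraries (paired log2 fold change 0.24, SE 0.097, edgeR adjusted p = 0.142). CENPC, which binds CENPA nucleosomes, had 21.0, 17.4 and 16.6 CPM in the TIM-1 libraries and 18.5, 15.5 and 14.1 CPM in the empty-vector libraries (0.20, SE 0.11, edgeR adjusted p = 0.363). Both were higher with TIM-1 in all 3 pairs, and in both the groups overlapped. In the unpaired fit CENPH had 0.23 (SE 0.16, edgeR adjusted p = 0.914) and CENPC 0.19 (SE 0.15, edgeR adjusted p = 0.919).

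Of the chromosomal passenger genes AURKB, INCENP, BIRC5 and CDCA8, 0 of 4 passed, with paired log2 fold changes from -0.11 to 0.07. Spindle and centriole genes ran from -0.11 for TACC3, a microtubule-stabilising partner of AURKA, to 0.11 for the kinase AURKA itself, with 0 of 9 past the threshold. The 4 tested cytokinesis genes lay between -0.05 for CEP55 and 0.12 for ANLN, and 0 passed. Condensin and chromosome genes lay between -0.16 for NCAPG and 0.11 for NCAPD2, and 0 of 7 passed. MKI67, whose protein coats mitotic chromosomes and serves as a proliferation marker, stood at 747, 503 and 434 CPM in TIM-1 libraries 1 to 3 and at 714, 511 and 477 CPM in empty-vector libraries 1 to 3. The groups overlapped over most of their range (561 ± 164 CPM in TIM-1 cells, against 568 ± 128 CPM in empty-vector cells, SD, n = 3 each), and the paired log2 fold change of -0.03 (SE 0.059) did not pass (edgeR adjusted p = 0.839).

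The role named after the anaphase-promoting complex and separase holds CDC20, UBE2C, FBXO5, PTTG1, ESPL1, SGO1 and SGO2, and no core subunit of that complex. Among these 7 genes 0 passed, with SGO2 and PTTG1 at the ends of the range. SGO2, a shugoshin of centromeric cohesin, had 137, 106 and 81.0 CPM in the TIM-1 libraries and 160, 115 and 98.3 CPM in the empty-vector libraries, lower with TIM-1 in each pair (paired log2 fold change -0.21, SE 0.066, edgeR adjusted p = 0.0525). SGO2 passed in 2 of 10 settings, with RLE factors in place of TMM factors (edgeR adjusted p = 0.0489) and after a trend with GC content was removed (edgeR adjusted p = 0.0195). It did not pass with DESeq2 (adjusted p = 0.242) or with a block for replicate 1 only (edgeR adjusted p = 0.215). In the unpaired fit SGO2 had -0.21 with a larger error (SE 0.23, edgeR adjusted p = 0.931). Without pair 1, 2 or 3 it did not pass either (edgeR adjusted p = 0.109, 0.249 and 0.206). Securin, the inhibitor of separase encoded by PTTG1, had 398, 287 and 298 CPM in the TIM-1 libraries and 399, 254 and 237 CPM in the empty-vector libraries (0.17, SE 0.062, edgeR adjusted p = 0.115). The difference was absent from pair 1 (log2 difference -0.00) and present in pairs 2 and 3 (0.18 and 0.33). PTTG1 passed in 1 of 10 settings, without pair 1 (0.25, edgeR adjusted p = 0.0314).

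The intervals state how large a TIM-1 difference these libraries leave room for. In the paired fit the unadjusted 95% interval of 56 of the 57 genes lay within 0.5 on the log2 scale to either side of 0, which is a 1.41-fold difference, and the exception was CENPF. In the unpaired fit this held for 32 genes. The fold change itself was smaller than 0.25 in size, a 1.19-fold difference, for 56 genes in each fit. On simulated counts of 14479 genes with the spread of these libraries, the paired test recovered 21.3% of the genes changed by 0.25, 77.6% of those changed by 0.5 and 100% of those changed by 1 on the log2 scale, and the unpaired test recovered 0%, 19.7% and 94.0%.

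**Figure D3:**
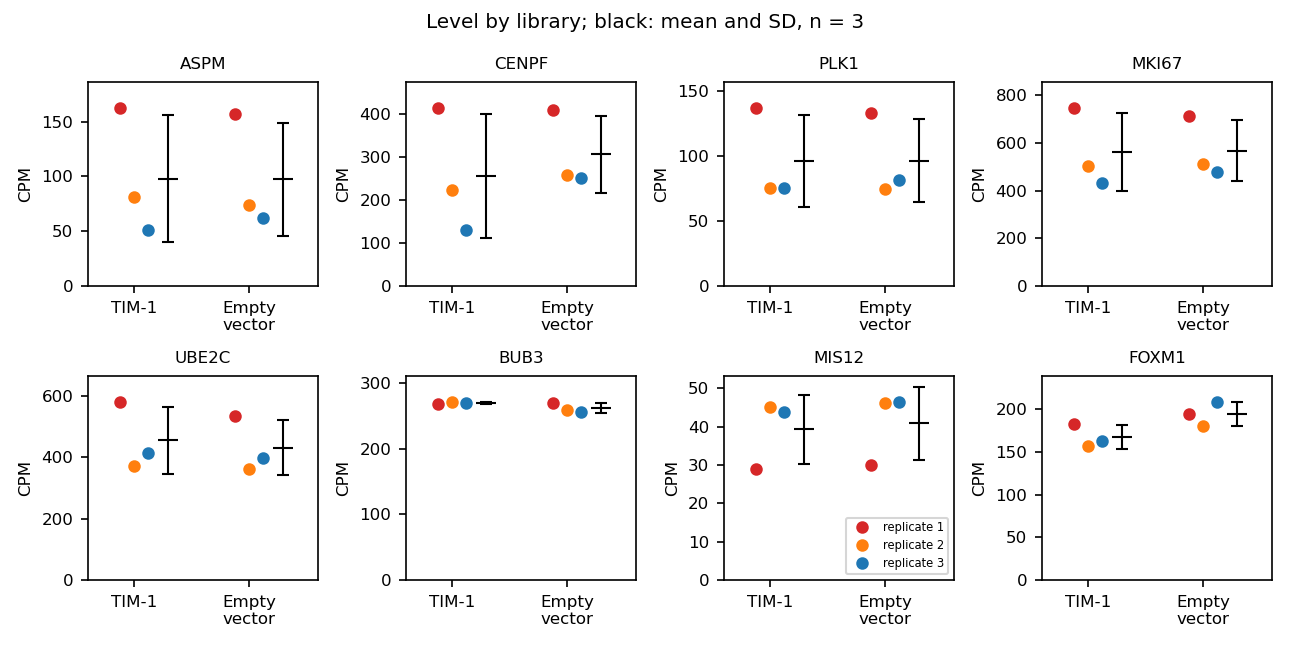
Level in CPM of 8 of the genes in each library, with TIM-1 left of the empty vector, coloured by replicate number; the black bar is the mean and SD of the 3 libraries of a group. In ASPM, CENPF, PLK1, MKI67 and UBE2C the replicate 1 library of both groups lies above the other 4 libraries, in MIS12 it lies below them, and BUB3 and FOXM1 show no such gap.

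Far more of these genes differed between the replicate numbers than between the vectors. With the group as a term in the edgeR fit, 40 of the 57 genes were higher and 2 were lower in replicate 1 than in replicates 2 and 3, against 11.6% higher and 12% lower among all tested genes. An unadjusted p under 0.05 was reached by 45 of the 57 genes and by 35.9% of all genes. The higher genes thus made up 70.2% of the group. The median log2 difference was 0.44, beside -0.01 over all tested genes. Both replicate 1 libraries lay above all 4 other libraries for 45 of the 57 genes, against 19.2% of all tested genes, and below all of them for 3 (MIS12, DSN1 and CENPM), against 20.4%. The 2 groups gave like counts and medians. Within TIM-1 the replicate 1 library lay above both others for 49 genes, and the median difference in log2(CPM + 0.5) was 0.38. Within the empty vector these were 47 genes and 0.47. Single genes could differ in direction between the groups: CENPK had -0.15 within TIM-1 and 0.46 within the empty vector, and CDC25B 0.14 and -0.18. The test of a difference between the groups in the replicate 1 change called 0 higher and 0 lower of 57 genes (edgeR, 0.0% of all tested genes in each direction), with an unadjusted p under 0.05 for 2 of the 57 and 5.38% of all genes, so a difference between the groups was not detectable here. What the numbers mark is not stated in the labels, and a culture, a day and a library preparation cannot be told apart. Counts from mitochondrial DNA took 4.38% and 4.20% in the replicate 1 libraries of TIM-1 and the empty vector and between 4.22% and 5.08% in the other 4, with no gap between the numbers. The genes were chosen with this difference between the numbers known from earlier results of these data. The replicate 1 fit counted the 2 libraries of a number as independent, although libraries of 1 number deviated together. It set 1 number against 2 others, so its p-values and intervals do not measure the spread between numbers.

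The kinase PLK1, which acts at mitotic entry, centrosomes and kinetochores, had the smallest p of the group (ENSG00000166851, chromosome 16, 23677656 to 23690367 on the plus strand). It stood at 137 CPM in TIM-1 replicate 1 and 133 CPM in empty-vector replicate 1, against 75.4 and 75.6 CPM in TIM-1 replicates 2 and 3 and 74.8 and 81.6 CPM in empty-vector replicates 2 and 3. The 2 replicate 1 values did not overlap the other 4, which lay close together. The level was 1.76-fold higher in replicate 1 (95% interval 1.59 to 1.94; log2 difference 0.81, SE 0.070, edgeR adjusted p = 5.08e-09).

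Spindle and centriole genes were higher in 8 of 9, all but the centriole duplication kinase PLK4 (0.00). DLGAP5, a microtubule-associated protein of kinetochore fibres (ENSG00000126787, chromosome 14, 55148112 to 55191678 on the minus strand), had 228 and 248 CPM in the TIM-1 and empty-vector libraries of replicate 1. In replicates 2 and 3 it had 151 and 129 CPM with TIM-1 and 131 and 139 CPM with the empty vector (log2 difference 0.79, SE 0.072, edgeR adjusted p = 1.52e-08). ASPM, a spindle pole protein whose loss causes microcephaly in humans (ENSG00000066279, chromosome 1, 197084128 to 197146694 on the minus strand), had the largest difference of the group. It stood at 162 and 157 CPM in the replicate 1 libraries of TIM-1 and the empty vector, against 80.7 and 50.8 CPM in TIM-1 replicates 2 and 3 and 73.8 and 61.8 CPM in empty-vector replicates 2 and 3. Here replicates 2 and 3 also differed from each other in both groups, and the error was larger than for PLK1 (log2 difference 1.26, SE 0.18, edgeR adjusted p = 0.00491), and the call was lost without empty-vector replicate 3 (1.21, edgeR adjusted p = 0.109). AURKA was higher by 0.50 (edgeR adjusted p = 2.96e-06) and TPX2 by 0.36 (edgeR adjusted p = 6.75e-05).

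All 7 condensin and chromosome genes passed, with log2 differences between 0.41 and 0.60. TOP2A, which untangles sister chromatids, had 878 and 841 CPM in the replicate 1 libraries of TIM-1 and the empty vector, against 664 and 577 CPM in TIM-1 replicates 2 and 3 and 585 and 558 CPM in empty-vector replicates 2 and 3 (0.53, edgeR adjusted p = 1.09e-06). MKI67 was higher by 0.60 (edgeR adjusted p = 3.12e-07). All 4 tested cytokinesis genes passed too, from 0.28 for CEP55, a midbody protein, to 0.50 for ECT2, the exchange factor that activates RhoA at the equator.

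The checkpoint and kinetochore genes were split. Of the 6 checkpoint genes 4 were higher in replicate 1, namely BUB1 (0.59, edgeR adjusted p = 4.91e-07), BUB1B (0.59, edgeR adjusted p = 3.48e-06), MAD2L1 and TTK. BUB3 (0.03) and ZW10 (0.02), a subunit of the complex that brings dynein to kinetochores, did not pass. In the outer kinetochore NDC80, NUF2, SPC25 and KNL1 were higher, by 0.34 to 0.64, while SPC24 (-0.16, edgeR adjusted p = 0.305) and ZWINT (0.12, edgeR adjusted p = 0.204) did not pass. CENPF had the second largest log2 difference of all 57 genes, 0.97, and did not pass (SE 0.29, edgeR adjusted p = 0.109). Without TIM-1 replicate 3, its lowest library, it passed at 0.78 (edgeR adjusted p = 7.48e-07), and it also passed with DESeq2 (adjusted p = 0.0123). In the inner kinetochore CENPA (0.51), CENPH (0.37) and CENPC (0.32) were higher, and CENPI, CENPK, CENPM and CENPN were not past the threshold, at 0.20, 0.16, -0.19 and -0.04. The CENPC call (edgeR adjusted p = 0.0478) held in 4 of 16 settings, that fit included.

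MIS12 and DSN1, subunits of the same Mis12 complex, which links the inner to the outer kinetochore, were the 2 genes that were lower in replicate 1. MIS12 (ENSG00000167842, chromosome 17, 5486285 to 5490814 on the plus strand) had 29.0 and 29.9 CPM in the replicate 1 libraries of TIM-1 and the empty vector. In replicates 2 and 3 it had 45.1 and 43.8 CPM with TIM-1 and 46.2 and 46.4 CPM with the empty vector (log2 difference -0.62, SE 0.090, edgeR adjusted p = 1.46e-05). DSN1 had 61.7 and 62.6 CPM in the replicate 1 libraries, against 72.9 and 72.0 CPM in TIM-1 replicates 2 and 3 and 79.7 and 81.6 CPM in empty-vector replicates 2 and 3 (-0.30, SE 0.077, edgeR adjusted p = 0.00590). In both genes the replicate 1 libraries lay below all 4 others. MIS12 passed in all 16 settings, and DSN1 lost its call without empty-vector replicate 1 (edgeR adjusted p = 0.191). In GENCODE 29, 9.5% of the exon bases of MIS12 overlap DERL2 on the opposite strand.

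Of the 4 passenger genes 3 were higher, CDCA8 by 0.60 (edgeR adjusted p = 4.31e-07), INCENP by 0.54 (edgeR adjusted p = 3.13e-06) and BIRC5 by 0.26 (edgeR adjusted p = 0.00584), while their kinase AURKB was at 0.00 (edgeR adjusted p = 0.993). AURKB had 118 and 120 CPM in the replicate 1 libraries of TIM-1 and the empty vector, against 112 and 113 CPM in TIM-1 replicates 2 and 3 and 115 and 135 CPM in empty-vector replicates 2 and 3. In AURKB, then, the numbers overlapped. Of the 7 genes in the role of the anaphase-promoting complex and separase 5 were higher, including PTTG1 (0.57, edgeR adjusted p = 6.61e-07), UBE2C (0.52, edgeR adjusted p = 1.53e-06) and separase itself (ESPL1, 0.41, edgeR adjusted p = 0.000131). FBXO5, an inhibitor of that complex, and SGO1 did not pass, at 0.14 and 0.24. In mitotic entry PLK1 and the phosphatase CDC25C (0.73, edgeR adjusted p = 2.07e-07) were higher, and CDC25B (-0.02, edgeR adjusted p = 0.902) and FOXM1 (0.10, edgeR adjusted p = 0.361) were not past the threshold. In all 16 settings 27 of the 40 higher genes passed.

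**Figure D4:**
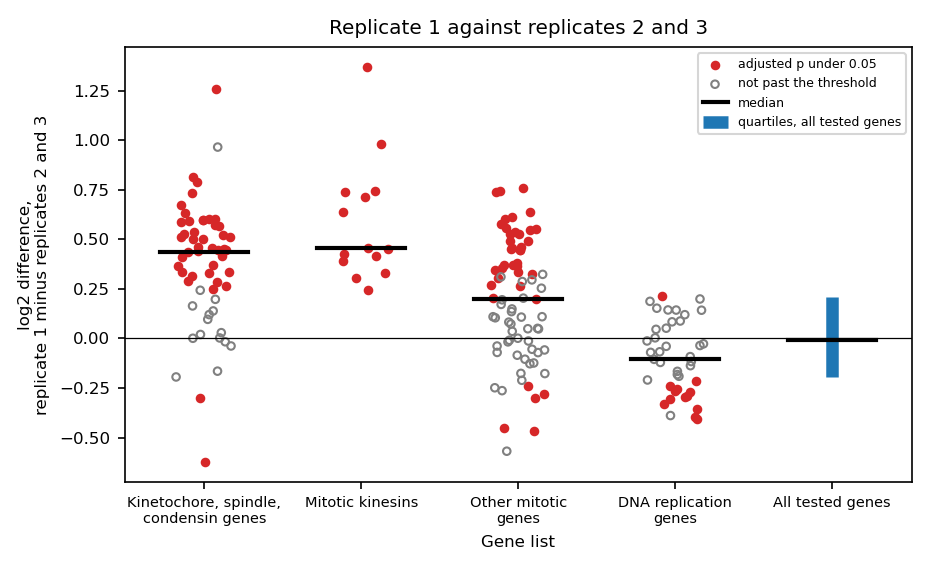
Log2 difference of replicate 1 minus replicates 2 and 3 (edgeR, group as a term) for the kinetochore, spindle and condensin genes and 3 other lists, 1 point a gene, with the median as a black line and the quartiles of all tested genes as a blue bar. The medians are 0.44 for the 57 genes, 0.45 for the kinesins, 0.20 for the other mitotic genes and -0.11 for the DNA replication genes.

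Other genes of mitosis and genes of DNA replication were counted in the same comparison, in which 11.6% of all tested genes were higher and 12% lower. Of 14 mitotic kinesins 14 were higher and 0 lower in replicate 1, with a median log2 difference of 0.45. Of 77 further mitotic genes 33 were higher and 5 lower, with a median of 0.20. GTSE1, CIT and NEK2 had the smallest p among the higher ones (0.75, 0.74 and 0.76), and WEE1, the kinase that holds CDK1 inactive, CDC16 and BOD1 among the lower ones (-0.45, -0.28 and -0.24). Of 41 DNA replication genes 1 was higher and 12 were lower, with a median of -0.11. With TIM-1, the paired edgeR test called 3.22% of all genes higher and 1.79% lower, and 18.3% had an unadjusted p under 0.05. It called 1 of the 77 further mitotic genes higher, the cyclin CCNB2 (0.22, edgeR adjusted p = 0.0346), and 3 lower, namely SMC3, SKA1 and PKMYT1 (-0.28, -0.31 and -0.29), and 13 of the 77 had an unadjusted p under 0.05. Of the 14 kinesins it called 1 higher, KIF20A (0.23), and 1 lower, CENPE (-0.60), both named after their values were seen, and 3 had an unadjusted p under 0.05. It called 0 of the replication genes in either direction, and 9 of the 41 had an unadjusted p under 0.05. The unpaired test called 0 genes of these 3 lists in either direction.

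The promoters of these genes were searched for the motifs of cell cycle transcription, as a description only. The cell cycle homology region, TTTGAA, is bound by the MuvB complexes that repress these genes in G1 and, with B-MYB and FOXM1, activate them in G2, and CCAAT is bound by NF-Y. RefSeq promoter windows of 250 bases before to 50 after the start (GRCh38.p14) were at hand for 49 of the 60 genes, and both strands were searched. TTTGAA was found for 34 of the 49 genes (69.4%), against 18.2% of all 27305 genes with a window. CCAAT was found for 37 (75.5%), against 39.7%. Among the genes that were higher in replicate 1, 26 of 32 (81.2%) held TTTGAA, and among the other tested genes 6 of 14 (42.9%). CCAAT was found in 71.9% and 85.7% of these. Of the kinesins 9 of 14 held TTTGAA, and of the DNA replication genes 1 of 35, while the E2F-type motif TTTCCCGC was found for 2 of the 49 genes and 9 of the 35 replication genes (1.98% of all genes). TTTAAA and TTTGGCGC were found for 10 and 1 of the 49 genes, against 14.5% and 0.795% of all genes. A match is a description of these letters and does not show that a factor is bound. The split by the replicate 1 call was taken from these same data. Whether these motifs have a part in the replicate 1 difference was not tested.

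The windows of the 3 genes with the largest differences that passed and of MIS12, which moved the other way, are given as examples. Each runs from 150 bases before to 30 after the RefSeq start, 5′ to 3′ on the strand of the gene. Capitals mark TTTGAA and CCAAT, or their reverse complements TTCAAA and ATTGG, and the other motifs are not marked. They lie at chr16:23678739-23678918 on the plus strand for PLK1, chr14:55191556-55191735 on the minus strand for DLGAP5, chr1:197146640-197146819 on the minus strand for ASPM, and chr17:5486224-5486403 and chr17:5486416-5486595 on the plus strand for the 2 starts of MIS12.
PLK1: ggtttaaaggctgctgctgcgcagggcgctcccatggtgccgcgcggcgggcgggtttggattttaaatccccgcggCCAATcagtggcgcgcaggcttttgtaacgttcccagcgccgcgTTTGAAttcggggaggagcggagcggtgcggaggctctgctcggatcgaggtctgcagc
DLGAP5: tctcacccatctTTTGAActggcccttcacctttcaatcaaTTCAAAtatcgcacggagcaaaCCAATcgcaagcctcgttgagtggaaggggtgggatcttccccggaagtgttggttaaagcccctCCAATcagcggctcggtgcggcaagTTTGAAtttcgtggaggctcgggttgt
ASPM: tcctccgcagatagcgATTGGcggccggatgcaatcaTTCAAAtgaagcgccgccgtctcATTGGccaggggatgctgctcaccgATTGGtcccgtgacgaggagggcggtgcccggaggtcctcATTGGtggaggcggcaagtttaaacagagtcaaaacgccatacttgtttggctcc
MIS12 start 1: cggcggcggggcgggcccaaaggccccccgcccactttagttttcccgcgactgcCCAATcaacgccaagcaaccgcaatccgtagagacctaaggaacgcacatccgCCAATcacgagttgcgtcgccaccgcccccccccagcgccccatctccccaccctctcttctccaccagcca
MIS12 start 2: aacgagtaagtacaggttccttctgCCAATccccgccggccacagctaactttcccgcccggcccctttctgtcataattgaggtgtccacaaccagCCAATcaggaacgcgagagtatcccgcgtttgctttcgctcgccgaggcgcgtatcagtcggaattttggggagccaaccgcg
PLK1 holds 1 CCAAT followed by 1 TTTGAA close to the start, DLGAP5 holds both motifs more than once, and ASPM holds 4 CCAAT boxes and 1 TTTGAA on the opposite strand. Both MIS12 windows hold CCAAT and neither holds TTTGAA in the stretch shown. Both also hold the E2F-type motif TTTCCCGC. Other genes break the pattern of these examples. BUB1, PTTG1, SGO2 and NCAPH were higher in replicate 1 without TTTGAA in their windows. PLK4, ZW10, ZWINT and CENPN held TTTGAA and were not called.

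Long and short transcripts had like median fold changes in the TIM-1 comparison. The 57 genes were split at their median exon length of 4314 bp, the 29 long ones reaching from CDC25B to the 12807 bp of MKI67. The median unpaired log2 fold change with TIM-1 was 0.00 for the 29 long genes and -0.03 for the 28 short ones, a difference of 0.04, and in the paired fit the difference was 0.01. Over all tested genes split at the same length the difference was -0.01 in both fits. The unpaired difference lay between -0.03 and 0.09 when each library was left out, so its sign rests on single libraries. The 57 genes are not independent replicates. Across them the Spearman correlation of the fold change with exon length was -0.04 in the unpaired and -0.07 in the paired fit. The Pearson correlation with log2 exon length was -0.14 and -0.19, against -0.02 over all tested genes in both fits. The 5 longest genes, MKI67, CENPF, ASPM, KNL1 and ESPL1, had paired log2 fold changes of -0.03, -0.37, -0.03, -0.03 and -0.07. The 5 shortest, UBE2C, CENPM, SPC25, CENPA and PTTG1, had 0.07, 0.05, 0.09, 0.08 and 0.17. The 5 longest thus all lay below 0 and the 5 shortest all above 0, and none of these 10 passed.

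Between replicate 1 and replicates 2 and 3 the long genes differed somewhat more. The median log2 difference was 0.45 for the 29 long genes and 0.31 for the 28 short ones, and 23 of the long (79.3%) and 17 of the short genes (60.7%) were called higher. Over all tested genes the medians were 0.03 for long and -0.06 for short genes, and 15.5% and 7.03% were called higher. There 845 of 7766 long and 893 of 6602 short genes were called lower, so the shift with length ran across 0. The difference of 0.14 between long and short genes of the group thus stood beside 0.09 over all genes, and it was 0.07 after the trend with length over all genes had been removed. The Spearman correlation with exon length was 0.30 across the 57 genes and 0.15 across 14368 tested genes with a length. Short genes were among the called ones: UBE2C, at 1286 bp the shortest of the group, had a difference of 0.52, and ASPM, at 10887 bp, had a difference of 1.26. BUB3, at 8300 bp, is long and had 0.03.

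**Figure D5:**
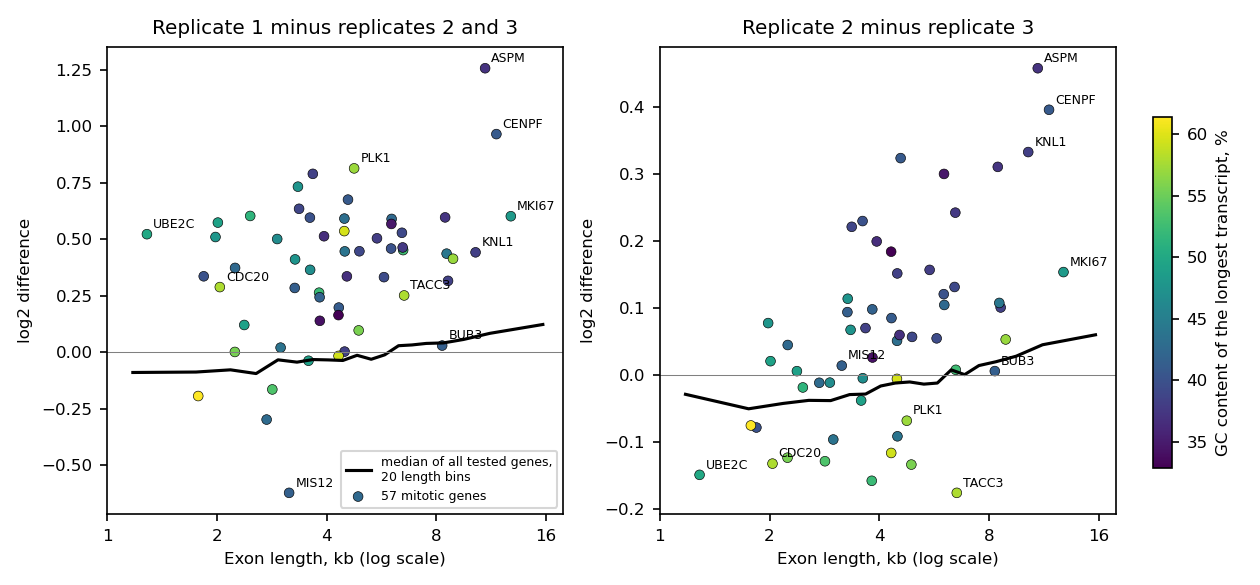
Log2 difference of the 57 tested genes against exon length (log scale), for replicate 1 minus replicates 2 and 3 on the left and replicate 2 minus replicate 3 on the right, coloured by the GC content of the longest transcript; the black line is the median of all tested genes in 20 bins of length, from 1 kb. ASPM (1.26 and 0.46) and CENPF (0.97 and 0.40) stand highest in both panels, and on the right the genes of high GC content, such as TACC3 (-0.18), lie lowest.

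Replicate 2 was also compared with replicate 3, a comparison chosen after the data were seen, in which few genes passed. ASPM was the 1 called gene of the 57 (0.46, edgeR adjusted p = 0.0191), and 0 were lower, against 0.0414% higher and 0.0207% lower among all tested genes, and 14 of the 57 genes and 8.22% of all genes had an unadjusted p under 0.05. The fit has 1 residual degree of freedom from 4 libraries. The median difference was 0.10 for the long and 0.01 for the short genes. Across the 57 genes the Spearman correlation was 0.51 with exon length and -0.74 with GC content, against 0.14 and -0.34 across all genes with a length, and length and GC content were themselves correlated at -0.34 across the 57 genes. Crossing both at their medians gave 0.14 for 18 long genes of low GC content, 0.10 for 10 short genes of low GC content, and -0.01 for both the 11 long and the 18 short genes of high GC content. The medians of the low and high GC groups differed at either length. In replicate 1 against replicates 2 and 3 the crossed medians were 0.46 and 0.45 for the long genes of low and high GC content and 0.31 and 0.33 for the short ones. Library by library, the Spearman correlation of a gene's deviation from its mean with exon length across the 57 genes was 0.30, -0.00 and -0.51 in TIM-1 libraries 1 to 3 and 0.31, 0.06 and -0.21 in empty-vector libraries 1 to 3.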

How the data were processed

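The values are raw counts as the authors deposited them, whole and not normalized, for 60605 Ensembl genes in 6 libraries of UMUC3 cells. Per the submitters' processing notes, the build was hg38 and the tools were HISAT2 2.0.5, featureCounts 1.5.0-p3 and DESeq2 1.16.1. The authors' annotation, use of strand and treatment of shared reads are not stated, so counts of overlapping genes are uncertain: exons of 21 of the 60 genes overlap another gene in GENCODE 29, for 18 of them on the opposite strand.

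Groups came from the treatment and numbers from the titles in the labels. Genes were kept with filterByExpr (minimum count 10) and tested over the whole table with the robust quasi-likelihood F test of edgeR 4.0.16 with TMM factors in R 4.3.3, two-sided, adjusted by Benjamini-Hochberg over 14479 genes at 0.05. The fits were group alone, group with the number as a block, and group with replicate 1 as a term, with the group coded as TIM-1 minus empty vector. The F statistic gave the standard errors, CPM used TMM-scaled library sizes, and pair differences used log2(CPM + 0.5). Around the group means, libraries of 1 number deviated together, with correlations over genes of 0.53, 0.23 and 0.26 for numbers 1, 2 and 3, against -0.40 to 0.26 between different numbers. The labels do not state the pairing, and these values separate replicate 1 clearly but do not separate replicates 2 and 3. TIM-1 library 3 with empty-vector library 2 gave 0.26, above the 0.23 of number 2. Libraries of a group differed by more than sampling noise (chi-square per degree of freedom 4.20 to 27.9).

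Exon lengths and GC content came from GENCODE 29, trends were removed by lowess (span 0.3), and lengths were compared without a test because genes are not replicates. The alternatives were RLE factors, no filter, DESeq2 1.42.0, removal of a length or GC trend, other measures of length, other codings of the replicate and each library or number left out. On simulated data of 14479 genes the replicate 1 fit recovered 11.9%, 79.1% and 98.5% of log2 changes of 0.25, 0.5 and 1. All simulations gave every gene the same coefficient of variation, and the paired one used an assumed spread between numbers. Named genes were the called ones with the smallest p, up to 12 in a fit, the highest and lowest of each role per kilobase, the 5 longest and 5 shortest, and the 2 most positive and 2 most negative paired fold changes. Genes named beyond these were chosen after their values were seen. The genes, their roles and all lists were chosen with earlier results of these data known. Protein sequences were not used here. Counts, intervals and simulations cover these 6 libraries only.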

Additional observations from a re-analysis of the deposited data

How the results depend on the processing

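The TIM-1 result held in the unpaired fit, with 0 genes of the 57 higher or lower under every alternative without the pairing, and 1 lower (FOXM1) with the replicate block. In the paired fit the count of lower genes was 1, and it was 2 with RLE factors, 2 with the GC trend removed, 0 with DESeq2 and 0 with a replicate block of replicate 1 against the others. With a number left out it lay between 0 and 1, and the count of higher genes between 0 and 1. With replicate 1 the count of higher genes lay between 32 and 41 in all settings, and that of lower genes between 1 and 2 with a library or number left out. The median TIM-1 fold change of the 57 genes moved between -0.12 without TIM-1 replicate 1 and 0.17 without empty-vector replicate 1 in the unpaired fit. The long minus short difference with TIM-1, 0.036, was 0.0063 with the replicate block, 0.053 by length in the genome, and -0.028 to 0.094 with a library left out. The same difference for replicate 1, 0.14, was 0.17 by the longest transcript, 0.21 by length in the genome, 0.072 with the length trend removed, and 0.076 to 0.24 with a library or number left out. Counts over all genes moved more: the unpaired test called 2 higher and 0 lower, 29 and 1 with DESeq2, 60 and 12 without the filter and 8 and 1 without empty-vector replicate 1. The paired test called 466 and 259, 151 and 76 with DESeq2, 674 and 619 with the GC trend removed and 152 and 57 without replicate 2. The replicate 1 test called 1673 and 1740, 708 and 670 without empty-vector replicate 1 and 784 and 833 without TIM-1 replicate 1. The cause of these shifts was not tested. On counts simulated with the same coefficient of variation for every gene, the paired test recovered 21.3% of differences of 0.25 on the log2 scale.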
